A study of Homo sapiens with 9 samples.

Results

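The MHC class II genes studied here are 10 genes of antigen presentation, found by gene identifier or symbol among the 15436 genes listed: the regulator CIITA, the chaperone CD74, the paired chains HLA-DRA and HLA-DRB1, HLA-DQA1 and HLA-DQB1, and HLA-DPA1 and HLA-DPB1, and the peptide editors HLA-DMA and HLA-DMB. The rule names the genes and sets no condition on their values, and the list was drawn up with earlier results of these data known. All 10 were abundant enough to test, as were 11346 genes in all. RNA came from the established human cell line Raji, a Burkitt lymphoma of B-cell origin, in 3 groups of 3 libraries. One group received the solvent DMSO, one hydroxyurea (HU), which inhibits ribonucleotide reductase and slows DNA replication, and one thymidine with nocodazole (Thy-Noc), which block DNA synthesis and mitosis. The sources used here give no doses or times, and all groups are the same line with no stated genetic change. No label says that replicates were separate cultures, so p-values measure only the spread between these libraries, which may be technical.

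MHC class II molecules are pairs of an alpha and a beta chain that carry peptides from endosomes to the cell surface, where CD4+ T cells read them. In B cells the genes are active by default, and CIITA, a coactivator that does not bind DNA itself, switches them on. It docks on a complex that binds the promoters: RFX at the X box, CREB beside it, and NF-Y at the Y box, an inverted CCAAT. CD74, the invariant chain, fills the groove of new class II molecules, and HLA-DM later helps to swap its remnant for peptide.

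The X and Y boxes were looked for in RefSeq promoters (GRCh38.p14, 250 bases before to 50 after a gene's start), where 8 of the 10 genes had an entry. The letters searched, on both strands, were CNAGNNACNGA for the X box and ATTGG for the Y box. The X letters were taken from class II promoters themselves. They come from the 12-base stretch of HLA-DRB1 that shares most letters with its closest counterparts in HLA-DQA1, HLA-DQB1, HLA-DMA and HLA-DMB. Only letters shared by all 5 were kept, so these 5 held an X match by construction. A match is a description and not a binding site. HLA-DRB1, HLA-DQA1, HLA-DQB1 and HLA-DMA held an X match followed 15 to 35 bases later by a Y match on the strand of the gene. Among all 35116 promoters, 3.35% held an X match, 34.6% a Y match and 0.0313% the pair in this order, 11 promoters of which 6 belonged to class II genes. Of these 6, 4 were promoters that gave the X letters, so their X match was fixed in advance. These shares are therefore no test of enrichment. The 4 pairs are shown because their spacing is nearly the same, 24 or 25 bases between the boxes. Each is written from 5′ to 3′ on the strand of its gene, with both boxes in capitals, and the coordinates and strand follow.
HLA-DRB1: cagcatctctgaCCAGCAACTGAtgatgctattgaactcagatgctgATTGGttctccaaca
HLA-DQA1: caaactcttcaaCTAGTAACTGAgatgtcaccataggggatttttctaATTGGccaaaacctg
HLA-DQB1: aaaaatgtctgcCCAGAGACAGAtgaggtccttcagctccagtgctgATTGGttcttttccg
HLA-DMA: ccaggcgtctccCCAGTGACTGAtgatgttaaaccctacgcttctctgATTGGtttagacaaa
These stretches lie at chr6:32589880-32589941 on the minus strand (HLA-DRB1), chr6:32637290-32637352 on the plus strand (HLA-DQA1), chr6:32666731-32666792 on the minus strand (HLA-DQB1) and chr6:32953162-32953224 on the minus strand (HLA-DMA). The X match began 81, 104, 123 and 115 bases before the RefSeq start in that order.

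The other promoters held no such pair of exact letters. HLA-DMB had an X match 90 bases before its start and the letters CCAAT, the Y box read from the other strand, 22 bases before. One of the 2 HLA-DPA1 entries had an X match 101 bases before its start and no Y match on either strand. HLA-DPB1 had a Y match 99 bases before its start and CCAAT 75 bases before, and CD74 had CCAAT alone, 53 bases before. The search took exact letters only, and HLA-DPA1, HLA-DPB1 and CD74 had no part in setting the X letters. Boxes with other letters would be missed, so a missing match does not mean a missing box. Upstream of its Y match HLA-DPB1 holds ctagtgagcaa, with some but not all of the X letters. The stretches of HLA-DPB1 and CD74 are also shown, with the first Y match or CCAAT in capitals.
HLA-DPB1: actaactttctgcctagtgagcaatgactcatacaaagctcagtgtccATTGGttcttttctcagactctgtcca
CD74: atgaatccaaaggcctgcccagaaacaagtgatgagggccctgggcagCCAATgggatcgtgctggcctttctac
They lie at chr6:33075843-33075917 on the plus strand and chr5:150412937-150413011 on the minus strand.

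**Figure D1:**
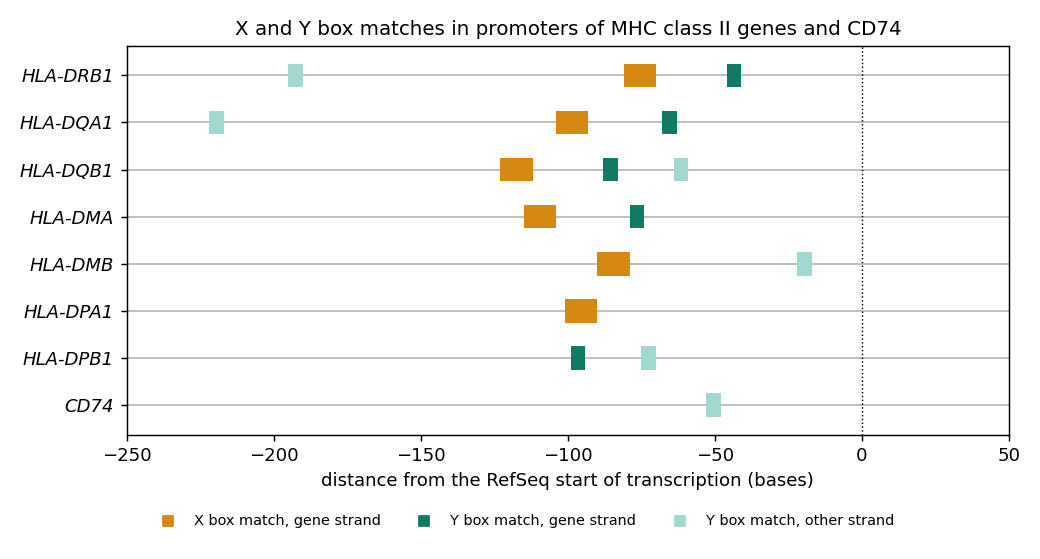
Positions of X and Y box matches in RefSeq promoters of 7 HLA genes and CD74, in bases from the start of transcription (0, dotted line). Where a promoter had several matches of a kind, 1 is drawn. In HLA-DRB1, HLA-DQA1, HLA-DQB1 and HLA-DMA the X match (orange) lies upstream of a Y match on the strand of the gene (dark green), 24 or 25 bases apart, and Y matches on the other strand are pale.

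The mean levels of the 10 genes, divided by the length in kilobases of the longest annotated transcript (GENCODE 29), had the same order in all 3 groups. Levels are given in CPM, counts scaled to the size of the library. Those in this paragraph are CPM per kilobase unless plain CPM is named, as mean ± SD with n = 3. In DMSO, CD74 stood at 276 ± 44.2, HLA-DPA1 at 175 ± 13.9, HLA-DPB1 at 108 ± 19.9 and HLA-DRB1 at 81.2 ± 7.41. HLA-DQB1 followed at 26.1 ± 3.26 and HLA-DMA at 18.9 ± 11.3, and the libraries of these neighbours overlapped. HLA-DQA1 at 3.80 ± 1.02 and HLA-DRA at 2.96 ± 0.88 overlapped as well, while HLA-DMB stood at 1.21 ± 0.067 and CIITA last at 0.0280 ± 0.015. HLA-DRA, the single alpha chain that pairs with every DR beta chain, thus lay far below HLA-DRB1 in each library. Values of the deposited table may not hold all reads of a gene, so this order describes the table and not the amount of each mRNA. It also depends on the lengths used, from 1.23 kb for HLA-DRB1 to 16.1 kb for CIITA. Single libraries did not always keep the order of the means. In HU, CD74 overlapped HLA-DPA1, HLA-DPB1 overlapped HLA-DRB1 and HLA-DMA overlapped HLA-DQA1. In Thy-Noc, HLA-DRA overlapped HLA-DMB, and the lowest CD74 library (161) lay below every HLA-DPA1 library (lowest 187). In plain CPM in DMSO, mean HLA-DPA1 (877) lay above CD74 (477), and HLA-DQB1 (121) above HLA-DRB1 (99.8). Together the 10 genes made up 0.181 ± 0.0190% of the scaled counts in DMSO, 0.237 ± 0.0344% in HU and 0.208 ± 0.0179% in Thy-Noc (SD, n = 3 each). HU replicate 2 (0.198%) lay below DMSO replicate 3 (0.203%). HLA-DPA1 alone held 45.2 to 55.2% of the summed counts of the 10 genes over all libraries.

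**Figure D2:**
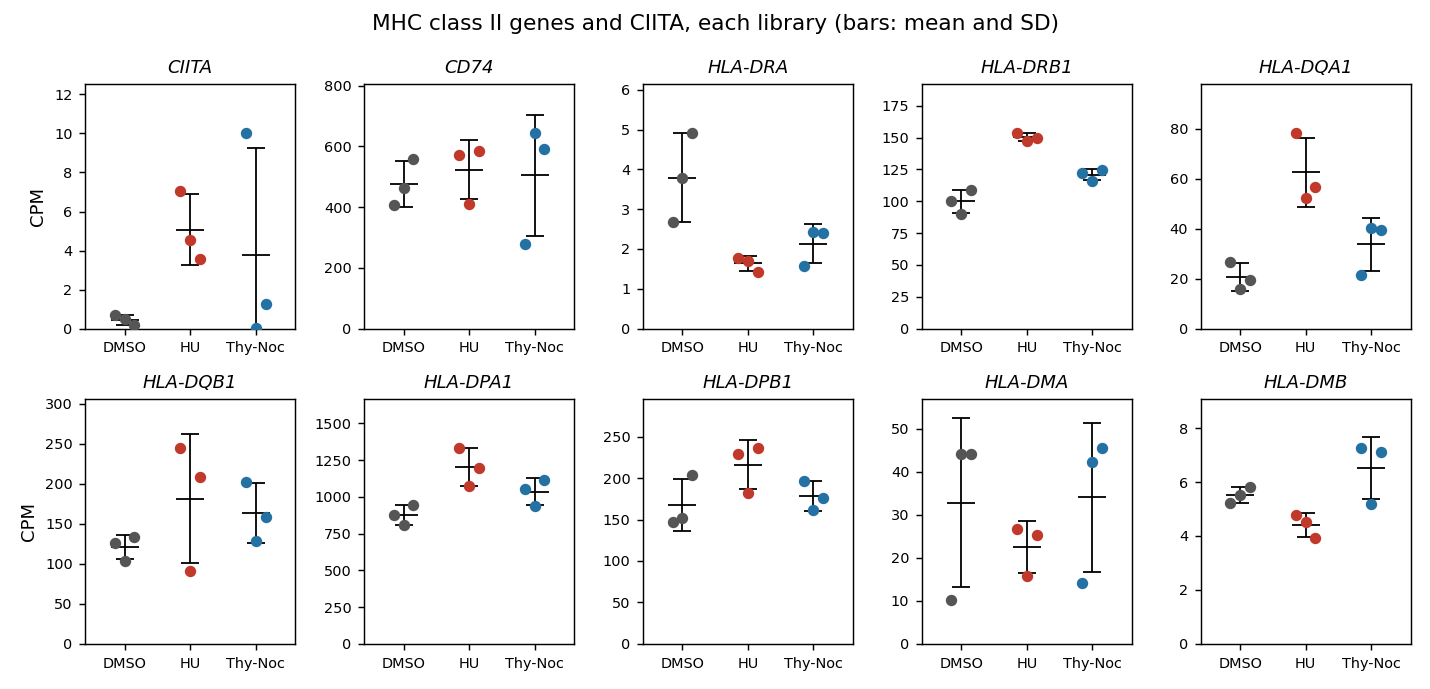
CPM of each gene in each library (points: replicates 1, 2 and 3 from left to right) with the mean and SD per group (black), on linear axes from 0. HLA-DRB1 and HLA-DQA1 lie higher in all 3 HU libraries than in all 3 DMSO libraries, HLA-DRA lies lower, and the Thy-Noc libraries of CIITA run from 0.0389 to 10.04 CPM. The lower end of the SD of CIITA in Thy-Noc falls below 0 and is not drawn.

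The libraries held 74940755 to 110485145 counts. They carried the markers of B cells, with a row for all 12 of a fixed list and a summed level of 1574 to 2093 CPM in DMSO, 1219.97 to 2116 in HU and 1523 to 2202 in Thy-Noc. Of 12 markers of myeloid and dendritic cells, which also express class II genes, 4 had a row, and their summed level was 1.10 to 2.39 CPM in DMSO, 1.63 to 5.38 in HU and 1.246 to 2.63 in Thy-Noc. Of 12 T and NK cell markers, 2 had a row, at a summed level of 0.168 to 3.39 CPM over all libraries. Mitochondrial transcripts took 1.001 to 1.08% of counts in DMSO, 1.45 to 1.82% in HU and 1.03 to 1.54% in Thy-Noc, and their part in the results was not tested.

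Comparing HU with DMSO asked how class II expression differed in cells given hydroxyurea. HLA-DRB1, the DR beta chain, and HLA-DQA1, the DQ alpha chain, rose in HU by 1.51-fold and 3.02-fold. They were the 2 of 10 genes past the threshold (adjusted p under 0.05, edgeR quasi-likelihood test), none fell past it, and 404 of all 11346 tested genes (3.56%) passed, 2% as higher and 1.56% as lower. Both DP chains had positive fold changes and HLA-DRA a negative one, none of them past the threshold, and CD74 differed little. The median log2 fold change of the 10 genes was 0.41, beside 0.02 over all tested genes, with 7 of 10 positive against 51.3% of all genes. In bulk RNA, a change in the number of expressing cells and a change in RNA per cell cannot be told apart.

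CIITA (ENSG00000179583, chr16:10866222-10943021 on the plus strand of GRCh38, 18 annotated transcripts), the regulator, had low values in the deposited table, which may not hold all of its reads. It stood at 0.672, 0.485 and 0.191 CPM in DMSO replicates 1, 2 and 3, from 53, 52 and 15 counts. In HU it had 7.07, 4.56 and 3.56 CPM, from 559, 352 and 373 counts, so that all 3 libraries lay above those of DMSO. In Thy-Noc it had 10.04, 0.0389 and 1.26 CPM, from 735, 3 and 122 counts, a range that spans both other groups. CIITA reached 1 CPM in all 3 HU libraries and in Thy-Noc replicates 1 and 3, but in no DMSO library. The filter asked for 1 CPM in at least 3 libraries, so CIITA was tested only because of HU, where it was high. Counts and medians of the 10 genes include it. The log2 fold change of HU against DMSO was 3.49 ± 1.53 (SE) and missed the edgeR threshold (adjusted p 0.248). DESeq2 put it past the threshold (3.48, adjusted p 0.0472) and limma did not (2.54, adjusted p 0.187). CIITA differed over 10-fold among Thy-Noc libraries, as did 1838 of the tested genes (16.2%) within at least 1 group, and its exons overlap those of AC133065.3 on the same strand and of DEXI and AC133065.1 on the other.

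CD74 (ENSG00000019582, chr5:150401637-150412929, minus strand, 12 transcripts), the chaperone of new class II molecules, stood at 409, 463 and 559 CPM in DMSO. In HU it stood at 571, 411 and 586 CPM, within and just above the DMSO range, and in Thy-Noc at 277, 645 and 591 CPM. Its log2 fold change in HU was 0.13 ± 0.32 (adjusted p 0.889), with a 95% interval from −0.62 to 0.88. A rise of CD74 by 2-fold lay outside this interval.

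HLA-DRA (ENSG00000204287, chr6:32439842-32445046, plus strand, 2 transcripts) encodes the DR alpha chain. It had 2.68, 3.77 and 4.92 CPM in the DMSO libraries, 1.78, 1.70 and 1.43 CPM in the HU libraries and 1.57, 2.41 and 2.41 CPM in the Thy-Noc libraries. All DMSO libraries lay above all libraries of the other groups. The log2 fold change in HU was −1.21 ± 0.29 and missed the threshold by edgeR (adjusted p 0.0727) and by limma (adjusted p 0.0809), while DESeq2 gave an adjusted p of 0.000451. These values rest on 115 to 404 counts per library.

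HLA-DRB1 (ENSG00000196126, chr6:32578769-32589848, minus strand, 1 transcript) encodes the DR beta chain. It had 101, 90.4 and 109 CPM in the DMSO libraries, 154, 147 and 149.9 CPM in the HU libraries and 122, 116 and 124 CPM in the Thy-Noc libraries. The 3 groups did not overlap, with Thy-Noc between the others. Mean CPM was 99.8 ± 9.10 in DMSO and 150.4 ± 3.34 in HU (SD, n = 3 each), and the log2 fold change was 0.59 ± 0.09 (SE, edgeR adjusted p 0.0245). Its log2 fold change stayed between 0.53 and 0.66 without any 1 library, but the call ended without DMSO replicate 1, 2 or 3 (adjusted p 0.0904, 0.0814 and 0.0622) or HU replicate 1 or 3 (0.0785 and 0.0829), and with only the 6 libraries compared (0.0696). Reads of the closely related HLA-DRB5 may be split with it, as with every DRB copy.

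HLA-DQA1 (ENSG00000196735, chr6:32628179-32647062, plus strand, 7 transcripts) encodes the DQ alpha chain. It had 26.8, 15.95 and 19.3 CPM in the DMSO libraries, 78.4, 52.4 and 56.7 CPM in the HU libraries and 21.4, 40.4 and 39.4 CPM in the Thy-Noc libraries. All HU libraries lay above all others, and Thy-Noc replicate 1 lay within the DMSO range. Mean CPM was 20.7 ± 5.54 in DMSO and 62.5 ± 14.0 in HU (SD, n = 3 each), and the log2 fold change was 1.59 ± 0.32 (edgeR adjusted p 0.0466). The call ended without any 1 DMSO library (replicates 1, 2 and 3: adjusted p 0.0934, 0.148 and 0.142), any 1 HU library (0.122, 0.0693 and 0.114) or Thy-Noc replicate 2 or 3 (0.0674 and 0.0704), with no filter (0.0624) and with only the 6 libraries compared (0.0705), and the log2 fold change ran from 1.40 to 1.82 without any 1 library. HLA-DQA2 is a closely related gene.

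HLA-DQB1 (ENSG00000179344, chr6:32659467-32668383, minus strand, 9 transcripts), the DQ beta chain, stood at 125, 104 and 133 CPM in DMSO. The HU libraries had 245, 91.2 and 208 CPM, and the Thy-Noc libraries 203, 128 and 159 CPM. HU replicate 2 lay below every DMSO library while the other HU libraries lay above them all. The log2 fold change in HU was 0.58 ± 0.36 (adjusted p 0.41), and it was 0.91 without HU replicate 2. Its exons overlap those of HLA-DQB1-AS1 on the other strand, and HLA-DQB2 is a closely related gene.

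HLA-DPA1 (ENSG00000231389, chr6:33064569-33080775, minus strand, 7 transcripts), the DP alpha chain, had 879, 806 and 946 CPM in the DMSO libraries, 1332, 1074 and 1194 CPM in the HU libraries and 1050.3, 940 and 1116 CPM in the Thy-Noc libraries. All HU libraries lay above all DMSO libraries. Its log2 fold change in HU was 0.45 ± 0.12 and missed the threshold by edgeR (adjusted p 0.082), but passed with total-count scaling (0.55, adjusted p 0.0466) and by DESeq2 (0.44, adjusted p 0.00473). HLA-DPB1 (ENSG00000223865, chr6:33075926-33087201, plus strand, 8 transcripts), the DP beta chain, had 148, 152 and 203 CPM in the DMSO libraries and 229, 182 and 236 CPM in the HU libraries, where replicate 2 lay within the DMSO range. Its log2 fold change was 0.36 ± 0.17 (adjusted p 0.266), and in Thy-Noc it stood at 197, 161 and 177 CPM. The exons of the 2 DP genes overlap on opposite strands.

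HLA-DMA (ENSG00000204257, chr6:32948613-32969094, minus strand, 9 transcripts) and HLA-DMB (ENSG00000242574, chr6:32934629-32941070, minus strand, 6 transcripts) encode the peptide editor HLA-DM. HLA-DMA had 10.1, 44.1 and 44.2 CPM in the DMSO libraries, 26.8, 15.7 and 25.3 CPM in the HU libraries and 14.2, 42.4 and 45.6 CPM in the Thy-Noc libraries. One library lay far below the others in DMSO and in Thy-Noc, and the groups overlapped (log2 fold change in HU −0.54 ± 0.64, adjusted p 0.718). HLA-DMB had 5.21, 5.53 and 5.82 CPM in the DMSO libraries, 4.78, 4.54 and 3.93 CPM in the HU libraries and 7.27, 5.204 and 7.10 CPM in the Thy-Noc libraries. Its HU libraries lay below all others, with a log2 fold change against DMSO of −0.32 ± 0.19 (adjusted p 0.398). HLA-DMA overlaps BRD2 on the other strand, and both DM genes overlap the annotated gene AL645941.2 on the same strand.

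In HU against DMSO the libraries of 6 of the 10 genes did not overlap, beside 30.7% of all tested genes. CIITA, HLA-DRB1, HLA-DQA1 and HLA-DPA1 were higher (15.5% of all genes) and HLA-DRA and HLA-DMB lower (15.3%). Unadjusted p was under 0.05 for HLA-DRA, HLA-DRB1, HLA-DQA1 and HLA-DPA1, beside 21.2% of all genes. DESeq2 called 5 of the 10, these 4 and CIITA, beside 19.5% of the 10932 genes to which it gave an adjusted p. Limma called 2, beside 4.95% of all genes. HU replicate 2 was the lowest HU library for CD74, both DQ chains, both DP chains, HLA-DRB1 and HLA-DMA, and DMSO replicate 1 and Thy-Noc replicate 1 were the lowest of their groups for both CD74 and HLA-DMA.

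**Figure D3:**
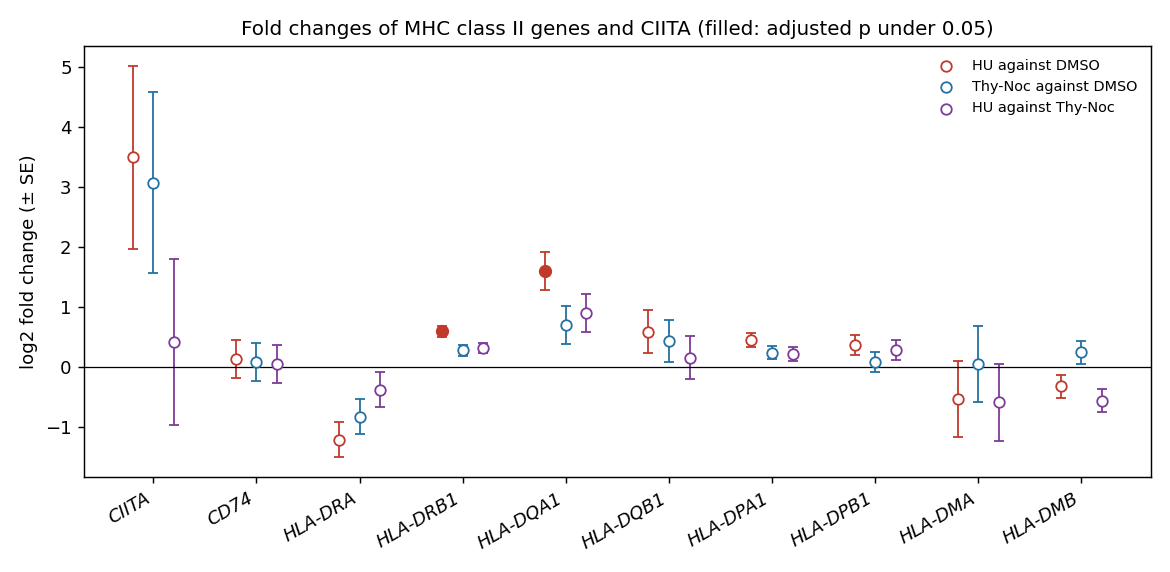
Log2 fold change ± SE of each gene in the 3 comparisons (edgeR, 3 libraries per group), filled where the adjusted p was under 0.05. The 2 filled points are HLA-DRB1 (0.59) and HLA-DQA1 (1.59) in HU against DMSO, and the error bars of CIITA span over 1 log2 unit to each side.

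Thy-Noc against DMSO showed no class II gene past the threshold. By edgeR's quasi-likelihood test, 0 of the 10 genes passed, beside 4 of all 11346 (0.0353%), and 2 of the 10, HLA-DRA and HLA-DRB1, had an unadjusted p under 0.05 (4.49% of all genes). DESeq2 called 1, HLA-DRB1 (adjusted p 0.0352), beside 1.64% of genes, and limma called 0, beside 0.106%. The log2 fold change of HLA-DRB1 was 0.28 ± 0.09 and that of HLA-DRA −0.83 ± 0.29, with libraries that did not overlap between the groups in these 2 genes only (9.97% of all genes). HLA-DQA1 had 0.70 ± 0.32, HLA-DPA1 0.24 ± 0.12 and CIITA 3.07 ± 1.5. Without Thy-Noc replicate 1 the log2 fold change of CIITA was 0.54. In all, 9 of the 10 fold changes were positive, beside 51.1% of all genes, with a median of 0.24 beside 0.01 over all genes. Every adjusted p of the 10 genes was 0.9998, and this comparison shares its DMSO libraries with that of HU.

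In HU against Thy-Noc, no class II gene passed by edgeR either, beside 199 of all 11346 genes (1.75%). Unadjusted p was under 0.05 for 3 of the 10, HLA-DRB1, HLA-DQA1 and HLA-DMB (19.4% of all genes), DESeq2 called 2, HLA-DRB1 and HLA-DMB (16.7% of genes), and limma called 0 (2.87%). The libraries of the same 3 genes did not overlap (24.9% of all genes). HLA-DRB1 and HLA-DQA1 were higher in HU, with log2 differences of 0.32 ± 0.09 (adjusted p 0.123) and 0.89 ± 0.32 (adjusted p 0.191). HLA-DMB was lower in HU, at −0.56 ± 0.19 (adjusted p 0.181), and the differences of CIITA, 0.42 ± 1.38, and CD74, 0.05 ± 0.32, were smaller than their SE. That of CIITA was 2.96 without Thy-Noc replicate 1 and −0.15 without Thy-Noc replicate 2. Of the 10 differences 7 were positive, beside 50.7% of all genes. Neither HLA-DRB1 nor HLA-DQA1 was thus shown by edgeR to differ between HU and Thy-Noc.

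Each class II molecule needs its alpha and its beta chain, so the chains were also compared within each library, as the log2 ratio of alpha over beta after adding 0.5 CPM. These ratios compare genes of different length and read assignment and have meaning here only as differences between libraries. For HLA-DRA over HLA-DRB1, the DMSO libraries had −4.99, −4.41 and −4.33, the HU libraries −6.08, −6.07 and −6.28, and the Thy-Noc libraries −5.89, −5.32 and −5.42. The 3 groups did not overlap, and the mean was lower by 1.57 in HU and by 0.97 in Thy-Noc than in DMSO. The gap between DMSO and both other groups follows from the levels given above and is no further result. Each DMSO library lay above all treated libraries for HLA-DRA and below them all for HLA-DRB1. How often ratios of other gene pairs separate the groups was not counted. For HLA-DQA1 over HLA-DQB1, the DMSO libraries had −2.21, −2.67 and −2.76 and the HU libraries −1.64, −0.79 and −1.87, a mean difference of 1.11 in the opposite direction with no overlap, while Thy-Noc (−3.22, −1.65 and −2.00) overlapped both. The DP ratios ran from 2.21 to 2.66 and the DM ratios from 0.90 to 2.91 over all libraries, and both overlapped in every pair of groups. The shift of the DR and DQ ratios was not tested.

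**Figure D4:**
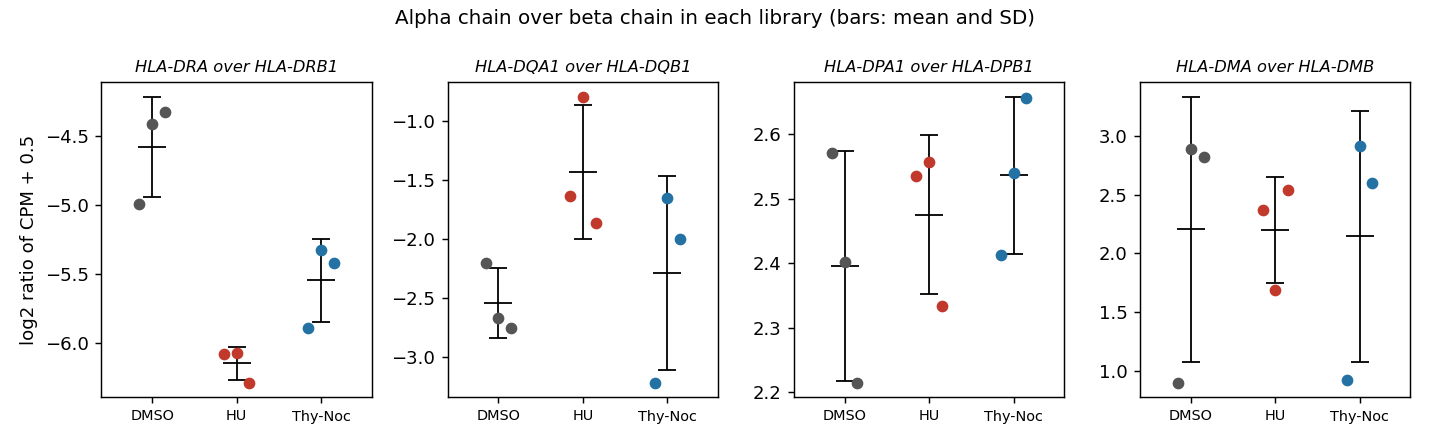
Log2 ratio of alpha over beta chain (CPM + 0.5) in each library, with the mean and SD per group (black), on a separate axis range for each pair. HLA-DRA over HLA-DRB1 separates the 3 groups, HLA-DQA1 over HLA-DQB1 separates HU from DMSO, and the DP and DM ratios overlap between groups.

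The other class II chains gave 1 further call in HU against DMSO, where 3.56% of all genes passed. Of 5 tested, HLA-DQA2, a gene closely related to HLA-DQA1, rose from 8.99, 5.96 and 9.16 CPM in DMSO to 16.8, 15.6 and 16.8 CPM in HU. Its log2 fold change was 1.03 ± 0.20 (edgeR adjusted p 0.0419), and it had 11.95, 10.6 and 10.6 CPM in Thy-Noc. All 5 fold changes were positive, with a median of 0.47. HLA-DRB5, a second DR beta chain, had 0.45 and HLA-DOB, the beta chain of the HLA-DM inhibitor HLA-DO, had 0.56, neither past the threshold by edgeR. DESeq2 called 3 of the 5 chains (19.5% of genes) and limma 1 (4.95%). The libraries of 4 chains did not overlap between HU and DMSO (30.7% of all genes). Between Thy-Noc and DMSO those of 3 chains did not overlap (9.97% of all genes).

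Of the 12 tested proteins of the complex on class II promoters, none passed in HU by edgeR, 5 had an unadjusted p under 0.05 (21.2% of all genes) and the median log2 fold change was 0.03. DESeq2 called 5 of them (19.5% of genes) and limma 0. RFXAP, a subunit of RFX, had the smallest p. The DMSO libraries had 12.8, 12.9 and 11.99 CPM of it and the HU libraries 7.29, 7.55 and 9.08 CPM, with no overlap (−0.66 ± 0.16, edgeR adjusted p 0.0777), and DESeq2 put it past the threshold. Of 16 tested regulators of CIITA, 1 rose and none fell (2% and 1.56% of all genes), with a median of 0.34, and of 8 tested genes of the interferon gamma receptor pathway, which induces CIITA, 2 rose and none fell, with a median of 1.01. SOCS1, a feedback inhibitor of that pathway on both lists, rose from 4.45 ± 1.28 to 12.1 ± 0.66 CPM (1.44 ± 0.23, edgeR adjusted p 0.0277). IFNGR1, a chain of the receptor, rose from 146 ± 20.4 to 305 ± 67.6 CPM (1.06 ± 0.18, edgeR adjusted p 0.031; mean ± SD, n = 3).

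Class I genes, which share parts of the class II regulation, gave 4 calls among 16 tested, all higher in HU (2% of all genes), with a median of 0.48. HLA-E, a class I heavy chain, rose from 120 ± 7.23 to 242 ± 37.7 CPM and TAP1, a subunit of the peptide transporter, from 205 ± 2.93 to 433 ± 76.4 CPM (log2 fold changes 1.02 ± 0.12 and 1.08 ± 0.14, edgeR adjusted p 0.0161 and 0.018). HLA-B, another heavy chain, and TAPBP, the tapasin of the loading complex, rose by 1.15 ± 0.22 and 0.65 ± 0.09 (edgeR adjusted p 0.0427 and 0.0224). Of 7 tested co-stimulatory genes, CD40 and CD80 rose by 1.37 ± 0.28 and 1.87 ± 0.36 (edgeR adjusted p 0.0492 and 0.0419, beside the same 2%), none fell and the median was 1.37. All 9 calls outside the 10 genes ended without DMSO replicate 1, 2 or 3 and with only the 6 libraries compared, and most without HU replicate 1 or 3, with adjusted p up to 0.155.

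None of 14 tested endosomal proteases and turnover genes passed by edgeR (median 0.24, 2 with an unadjusted p under 0.05), while 2 passed by DESeq2 and 0 by limma. None of 12 B-cell markers passed either (median −0.34, 5 with an unadjusted p under 0.05), while 3 passed by DESeq2 and 0 by limma. Over all genes 21.2% had such an unadjusted p, and 19.5% were called by DESeq2. The smallest p among the B-cell markers was that of FCER2, the low-affinity IgE receptor, at 0.98 ± 0.25 (edgeR adjusted p 0.084), which DESeq2 put past the threshold. In Thy-Noc against DMSO no gene of any of these lists passed by edgeR or limma (0.0353% and 0.106% of all genes). DESeq2 called 1, the protease-list gene IFI30 (1.64% of genes). An unadjusted p under 0.05 was found for 2 other class II chains, 1 protease-list gene and 1 co-stimulatory gene (4.49% of all genes). In HU against Thy-Noc, 1.75% of all genes passed by edgeR, and DESeq2 called 16.7%. Of these lists, DESeq2 called 4 class I genes, 4 of the promoter complex, 2 co-stimulatory and 2 interferon gamma pathway genes. It also called 1 other class II chain, 1 CIITA regulator and 1 protease-list gene. By edgeR, 3 of 16 class I genes and 1 of 16 CIITA regulators passed. SOCS1, HLA-E, TAP1 and TAPBP were higher past the threshold, by 1.28 ± 0.23, 0.77 ± 0.12, 0.91 ± 0.14 and 0.61 ± 0.09 (edgeR adjusted p 0.0485, 0.0383, 0.0358 and 0.0383). The calls of HLA-E and TAP1 ended without any 1 library other than HU replicate 2, and those of SOCS1 and TAPBP without any 1 library.

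**Figure D5:**
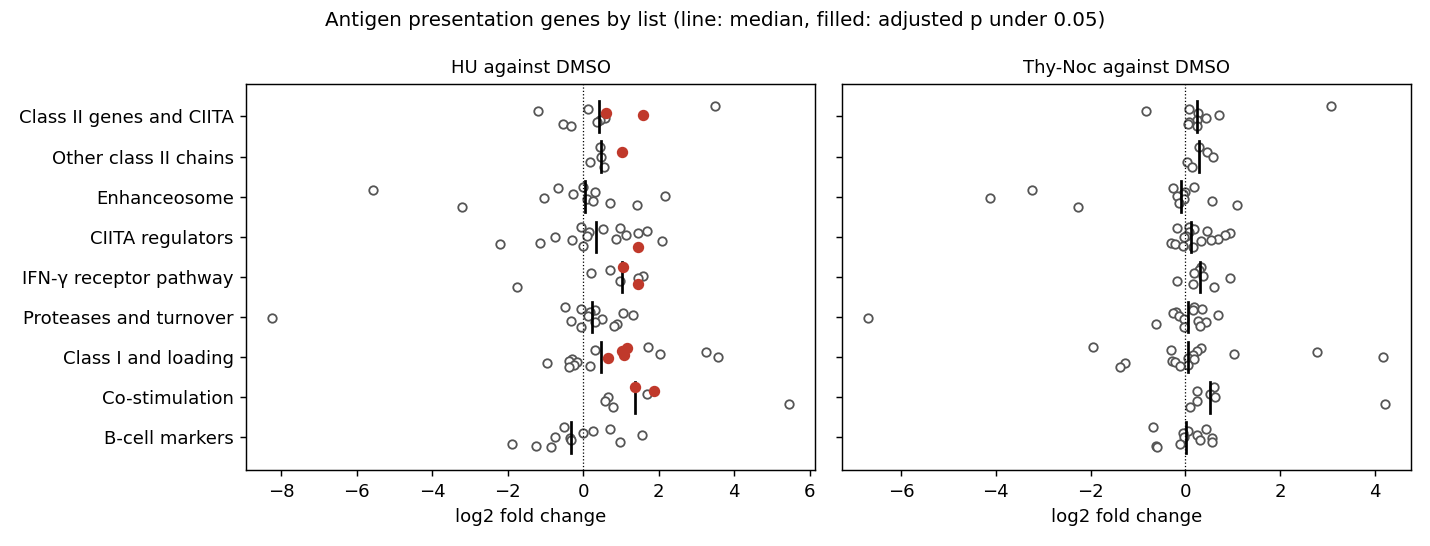
Log2 fold change of each tested gene by list in HU against DMSO (left) and Thy-Noc against DMSO (right), with the list's median as a bar and filled points where the adjusted p was under 0.05. Of the lists drawn, filled points lie among class II genes, other class II chains, CIITA regulators, the interferon gamma pathway (SOCS1 is drawn in both), class I and co-stimulation on the left, and none lie on the right.

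The genes whose levels followed CIITA most closely over the 9 libraries, by Pearson r of log2(CPM + 0.5) among 8120 genes with a mean of at least 5 CPM, were BIK (0.96), TOP1MT (0.94) and MT-RNR1 (0.93). HLA-DPA1 was the nearest class II gene, at rank 337 (0.72). TOP1MT had 1.15, 0.999 and 1.21 CPM in the DMSO libraries, 151, 165 and 128 CPM in the HU libraries and 225, 0.649 and 1.26 CPM in the Thy-Noc libraries, and so was high in Thy-Noc replicate 1 alone of its group, as CIITA was. The genes most like CD74, among 8119, were PANK4 (0.95), C4orf46 (0.93) and CNP (0.91). Of the 10 genes, HLA-DMA was the nearest to CD74, at rank 146 (0.72). These 9 points share libraries, their depth and their scaling, and the r values describe them only.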

How the data were processed

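RNA libraries of Raji cells (3 groups of 3) were made with a stranded mRNA kit, per the labels' protocols. The authors deposited 1 table of whole numbers, which its name calls CPM. Totals differ between libraries and no value is below 1, so the deposited values were taken to be expected counts that the authors made from aligned reads, and 274 genes stand at 1 in every library. Tools named in the submitters' processing notes are STAR, Trim Galore, FastQC and DESeq2, with no versions, and the build is GRCh38. The counting tool, annotation and strand use were not given in the sources used here.

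Of the deposited identifiers, 15393 matched a symbol, and positions came from GENCODE 29. In R 4.3.3 with edgeR 4.0.16, genes at 1 CPM or more in at least 3 libraries were kept (11346), scaled by TMM and fitted by quasi-likelihood on the 3 groups (6 residual degrees of freedom). All pairs of groups were compared by two-sided tests, p was adjusted over all tested genes (Benjamini-Hochberg) and the threshold was 0.05, and the steps were tested on simulated data. The SE of an edgeR log2 fold change was worked back from the test, as its absolute value over the square root of the F statistic. The 95% interval was built from this SE. The test set for true CPM values, limma 3.58.1 on log2(CPM + 0.5), became an alternative, beside DESeq2 1.42.0, other filters and scalings, a block for the replicate number, only the 6 libraries compared and leaving out each library. Lists are described by counts and medians with no list test.

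The 10 genes and the other lists were chosen with earlier results of these data known. Named genes are these 10, up to 4 called members per other list, comparison and direction with a mean of at least 2 CPM (or the member with the smallest p where none was called), and the 3 genes most like CIITA and CD74. Others were chosen after their values were seen, namely HLA-DRB5, HLA-DOB and RFXANK.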

Additional observations from a re-analysis of the deposited data

How the results depend on the processing

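Over 18 alternatives per comparison, 497 of 533 values of the 10 genes kept their direction and their side of the threshold, 18 lost a call, 7 gained one and 11 changed sign. For HU against DMSO (2 of the 10 genes and 404 genes called), class II calls and all calls were 1 and 220 with no filter, 0 and 51 with only the 6 libraries compared, 5 and 2135 by DESeq2, and from 0 to 2 and from 21 to 318 when 1 library was left out, lowest for all calls without DMSO replicate 3. For Thy-Noc against DMSO (0 and 4), DESeq2 called 1 and 179, limma 12 genes with either pseudocount, and leaving out 1 library gave 5 to 13. For HU against Thy-Noc (0 and 199), the calls of all genes were 64 with no filter, 313 with a minimum of 5 CPM, 18 with only the 6 libraries, 326 and 346 by limma with 0.5 and 1 CPM added, and 1 (without Thy-Noc replicate 3) to 103 with 1 library left out, and DESeq2 called 2 class II genes and 1826 genes. No filter and fewer libraries change the genes or samples tested, and the cause of the other shifts was not tested.

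Total-count scaling raised the median log2 fold change of all genes by 0.10 in HU against DMSO and by 0.15 in HU against Thy-Noc. The share of calls that were higher moved from 56.2% to 72.7% (271 higher, 102 lower) and from 39.7% to 70.7% (111 higher, 46 lower). It changed no direction among the 10 genes.

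With the replicate number as a block, 0 class II genes and 9 genes passed in HU against DMSO (HLA-DRB1 adjusted p 0.0716, HLA-DQA1 0.119), and 0 genes passed in both other comparisons. Same-numbered libraries did not deviate together (r from −0.035 to 0.040), and 1 of 9 correlated best with its own number. These r values pool all tested genes, so they do not exclude a shared batch or culture. All calls of other named genes also ended with the block.

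The changes of sign were all in values past no threshold and with 1 library left out. In Thy-Noc against DMSO, CD74 became −0.02, −0.13 and −0.04 and HLA-DMA −0.37, −0.13 and −0.21 without DMSO replicate 1, Thy-Noc replicate 2 and Thy-Noc replicate 3, with highest values of 0.38 and 0.42 without Thy-Noc replicate 1. In HU against Thy-Noc, CD74 became −0.01, −0.04 and −0.23 without HU replicate 1, HU replicate 3 and Thy-Noc replicate 1, HLA-DQB1 −0.12 without HU replicate 1 and CIITA −0.15 without Thy-Noc replicate 2, with highest values of 0.28, 0.48 and 2.96. Counts were lowest for CIITA and HLA-DRA, which went down to 3 and 115 in a library.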

Other observations

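IFI30, a thiol reductase of endosomes that helps to unfold antigens for class II loading, had 3.51, 1069 and 1103 CPM in the DMSO libraries, 3.24, 0.130 and 3.83 CPM in the HU libraries and 4.74, 3.44 and 12.7 CPM in the Thy-Noc libraries. Its DMSO replicate 1 lay at the level of the treated libraries, and the log2 fold change of HU against DMSO was −8.24 ± 2.26 (edgeR adjusted p 0.0975). RFXANK, a subunit of RFX chosen after its values were seen, had 77.0, 0.0467 and 0.636 CPM in the DMSO libraries, 1.30, 0.246 and 0.0953 CPM in the HU libraries and 0.0273, 7.06 and 1.13 CPM in the Thy-Noc libraries. DMSO replicate 1 was the lowest of its group for IFI30, as for CD74 and HLA-DMA, and the highest for RFXANK.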
